A study of Mus musculus with 72 samples.

Results

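The olfactory epithelium lining the mouse nose is divided along its dorsal to ventral axis, and 6 genes known to mark one end or the other were followed here through 72 RNA-seq libraries of that tissue. They were chosen by symbol: Nqo1 and Acsm4 as dorsal zone genes, and Ncam2, Nfia, Nfib and Nfix as ventral zone genes, 6 among 54532 genes counted. All 6 were among the 22144 genes that passed the filter on low counts. The study followed mice with altered Fzd1, a Frizzled receptor for Wnt ligands, over the first postnatal weeks. The ectopicFzd1 mice carried Omp-IRES-tTA, which puts the tetracycline transactivator under the Omp gene and so into mature olfactory neurons, and tetO-Fzd1-IRES-tdTomato, which the transactivator switches on together with the tdTomato reporter. The Fzd1lacZ mice were homozygous for the Fzd1-lacZ knockout allele. The control mice carried Omp-IRES-tTA alone. Without doxycycline (DOX), which blocks the transactivator, the 14 ectopicFzd1, 15 Fzd1lacZ and 13 control libraries came from days P0, P3, P7, P10 and P14. A further 15 ectopicFzd1 and 15 control libraries came from mice kept on DOX from P0 until they were taken at P1, P3, P7, P10 and P14. Groups held 3 libraries, with 3 exceptions that held 2: ectopicFzd1 at P14 and control at P3 and P7.

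In this epithelium each olfactory neuron expresses a single odorant receptor, and the zone in which the neuron lies limits the receptors it can choose. Class I odorant receptors, encoded in a cluster on chromosome 7, are used by dorsal neurons, and the neurons of each zone send axons to the matching part of the olfactory bulb. Nqo1 encodes NAD(P)H quinone dehydrogenase, a detoxifying enzyme that marks dorsal neurons, and Acsm4 encodes a medium-chain acyl-CoA synthetase of the dorsal zone, also called O-MACS. Ncam2 encodes the adhesion molecule OCAM, carried on the axons of ventral neurons. Nfia, Nfib and Nfix encode nuclear factor I (NFI) transcription factors, which bind DNA as dimers.

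The 250 bases before the annotated start of Nqo1, Acsm4 and Ncam2 are shown, and the windows of Nfia and Nfix are not printed. RefSeq held promoter entries for 5 of the 6 members, 8 entries in all, on GRCm38.p6. Each is printed 5′ to 3′ on the strand of the gene, from chr8:107403206-107403455 on the minus strand for Nqo1, chr7:119689776-119690025 on the plus strand for Acsm4 and chr16:81200447-81200696 on the plus strand for Ncam2. Capitals mark matches, on either strand, to any of 6 motifs searched.
Nqo1: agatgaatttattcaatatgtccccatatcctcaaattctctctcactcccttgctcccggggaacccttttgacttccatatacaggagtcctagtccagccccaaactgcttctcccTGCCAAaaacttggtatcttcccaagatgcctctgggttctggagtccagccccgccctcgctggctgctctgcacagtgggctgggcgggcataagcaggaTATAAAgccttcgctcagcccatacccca
Acsm4: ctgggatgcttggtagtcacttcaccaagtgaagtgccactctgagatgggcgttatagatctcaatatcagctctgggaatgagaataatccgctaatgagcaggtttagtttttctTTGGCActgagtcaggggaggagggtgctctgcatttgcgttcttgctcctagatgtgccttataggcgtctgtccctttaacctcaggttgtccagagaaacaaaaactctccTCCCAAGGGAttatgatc
Ncam2: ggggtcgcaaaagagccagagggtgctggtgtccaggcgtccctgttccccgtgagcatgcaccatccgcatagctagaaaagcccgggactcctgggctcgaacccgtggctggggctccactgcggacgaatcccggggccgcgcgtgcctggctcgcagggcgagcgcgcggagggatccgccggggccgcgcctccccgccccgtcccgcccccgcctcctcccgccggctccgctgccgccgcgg
The motifs were the single NFI site TTGGCA, the NFI palindrome of TTGGC and GCCAA set 5 bases apart, the antioxidant response core TGACNNNGC, the EBF motif of TCCC and GGGA set 2 bases apart, the LIM homeodomain motif TAATTA and the TATA box TATAAA. The Nqo1 window held a single NFI site, read on the opposite strand as TGCCAA, and a TATA box close to the start. The Acsm4 window held a single NFI site and an EBF motif, and the Ncam2 window held none of the 6. Among all 32841 RefSeq mouse windows of this length, 12.3% held the single NFI site, 12.4% the TATA box, 0.78% the EBF motif, 10.2% the antioxidant response core, 4.84% the LIM homeodomain motif and 0.0365% the NFI palindrome. The bases of the Ncam2 window were 75.2% G or C, against 53.2% for Nqo1 and 47.2% for Acsm4. A match of letters is a description of the window and not a bound site.

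Gene counts per library ranged from 1314528 to 8788000, with a median of 4280216. Between 0.054% and 73.7% of them fell in 12 genes of the Gm10800 type, and 8 libraries had more than 25% there. Fzd1 stood at 205 to 2122 CPM, a count scaled to a common library total, in 13 of the 14 ectopicFzd1 libraries without DOX, at 3.48 to 20.3 CPM in the Fzd1lacZ libraries and at 20.9 to 44.3 CPM in the control libraries without DOX. The library labelled ectopicFzd1 P3 replicate 3 had 43.0 CPM, and the library labelled control DOX P7 replicate 1 had 3.45 CPM against 20.7 to 54.3 CPM in the other 14 of its arm, so both went against their labels. With DOX the ectopicFzd1 libraries had 22.0 to 64.0 CPM of Fzd1. The labels do not say that replicates were separate animals, and 2 title numbers were each carried by more than 1 library, 1 of them by all 3 ectopicFzd1 DOX libraries at P3. The other was carried by an ectopicFzd1 DOX library at P10 and by one at P14. P-values therefore measure the spread between these libraries.

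All 6 genes were well detected, with the dorsal pair highest. Read per length in TPM, the authors' scale that allows for transcript length, Acsm4 had the highest median over the 72 libraries, 76.5 TPM, followed by Nqo1 at 37.6 TPM. Nfib had a median of 17.2 TPM and Nfia one of 10.01 TPM. Ncam2 stood at 8.73 TPM and Nfix at 8.10 TPM, medians close to each other within ranges of 1.51 to 15.4 TPM and 0.66 to 43.1 TPM. Acsm4 was the highest of the 6 in 66 of the 72 libraries and Nqo1 the second highest in 53. In the libraries of P0 and P1 Nfib took the second place in 7 of 15. Raw counts per library ranged from 72 to 2185 for Nqo1 and from 13 to 846 for Nfix, the most thinly covered of the 6. In the files' build, mm10, Nqo1 lies at chr8:107388225-107403206 on the minus strand, Acsm4 at chr7:119690026-119714565 on the plus strand and Ncam2 at chr16:81200697-81626828 on the plus strand. Nfia lies at chr4:97772734-98118874 on the plus strand, Nfib at chr4:82290173-82705750 on the minus strand and Nfix at chr8:84699876-84800344 on the minus strand. Whether counting used the strand of the reads is not given in the sources used here, so reads from genes overlapping these on the other strand cannot be told apart.

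The first comparison set ectopicFzd1 against control libraries without DOX. Of these genotypes only ectopicFzd1 carried tetO-Fzd1-IRES-tdTomato, so Fzd1, tdTomato and the inserted DNA cannot be told apart. The dorsal gene Nqo1 fell to 0.524 times its control level, the other dorsal gene Acsm4 did not pass the test, the ventral gene Ncam2 fell by a smaller amount, and none of the 3 NFI genes passed. At P0 Nqo1 had 34.4, 59.6 and 38.0 CPM in ectopicFzd1 libraries, against 98.5, 81.7 and 105.7 CPM in control libraries. At P3 it had 41.96, 48.0 and 76.2 CPM in ectopicFzd1, against 91.6 and 67.9 CPM in control. The P0 groups stood apart, and the P3 groups overlapped through 1 ectopicFzd1 library, the one whose Fzd1 level went against its label. At P7 Nqo1 had 58.4, 43.8 and 59.2 CPM in ectopicFzd1, against 90.8 and 91.0 CPM in control. At P10 it had 59.8, 99.4 and 98.9 CPM in ectopicFzd1, against 207, 160 and 134 CPM in control. At P14 it had 82.4 and 80.6 CPM in ectopicFzd1, against 183, 193 and 206 CPM in control. Every ectopicFzd1 library was below every control library of its age at 4 of the 5 ages, and for Ncam2 this also held at 4 ages. How many of all genes stood apart in this way was not counted, here or below.

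**Figure D1:**
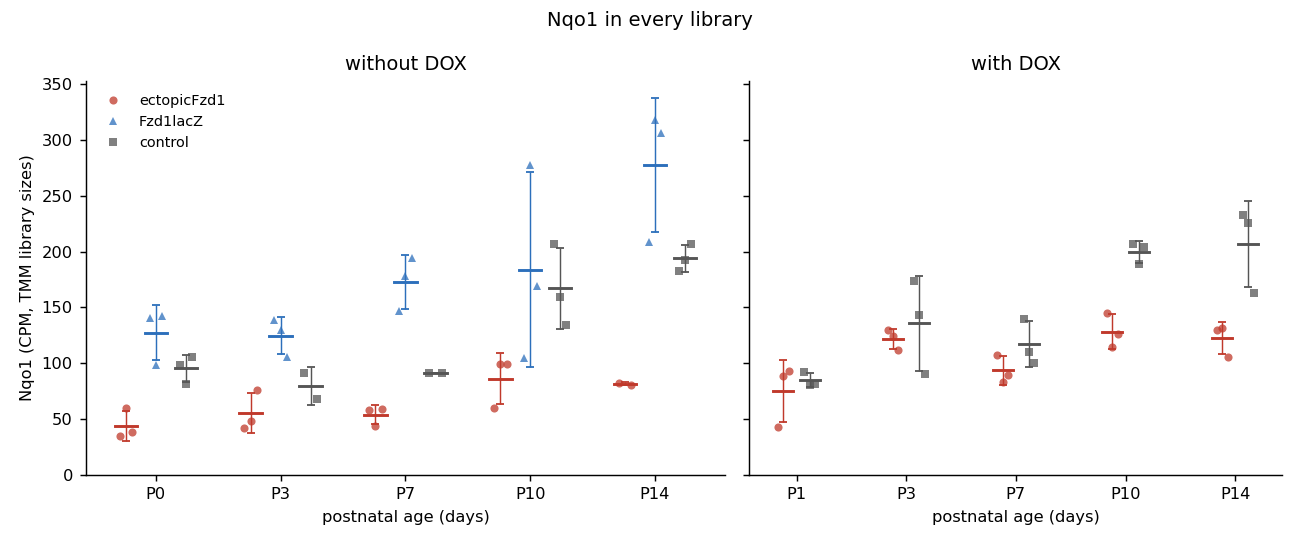
Nqo1 in CPM (y axis) by postnatal age (x axis) without DOX (left) and with DOX (right); points are libraries, thick lines group means and thin bars 1 SD. Without DOX the ectopicFzd1 libraries lie between 34.4 and 99.4 CPM, the Fzd1lacZ libraries between 98.7 and 317 CPM and the control libraries between 67.9 and 207 CPM.

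Averaged over the 5 ages, Nqo1 had a mean of 64.1 CPM in ectopicFzd1 and 125 CPM in control, a log2 fold change of -0.93 (SE 0.12, 95% interval -1.17 to -0.70, edgeR quasi-likelihood test, adjusted p = 1.07e-08). Of the 6 members, 2 were called at an adjusted p under 0.05, both lower, where 9.19% of all genes tested were called in this comparison, 6.52% called lower and 2.67% higher. Taken age by age, the log2 fold change of Nqo1 was -1.12 at P0 (SE 0.24, edgeR adjusted p = 0.00812, with 0.754% of all genes called), -0.96 at P10 (SE 0.24, edgeR adjusted p = 0.00702, with 10.3% called) and -1.25 at P14 (SE 0.28, edgeR adjusted p = 0.00546, with 1.76% called). It was -0.56 at P3 and -0.77 at P7, neither of which passed where 0.569% and 0.704% of genes did, and a test of whether the effect differed among ages did not pass either (edgeR F test, adjusted p = 0.793, with 0.357% of genes called). The call at P0 was lost when any of 3 of its 6 libraries was left out, that at P10 for 2 of 6 and that at P14 for 2 of 5. Measured on log2(TPM + 1), the changes at P0, P10 and P14 were -1.03, -1.20 and -1.33 but passed no test (limma, adjusted p of 1, 0.0512 and 0.108). With only the groups compared in the fit, P0 was not called either (edgeR adjusted p = 0.0909). The number series in the library titles gave 5 matched sets within an age, in which Nqo1 differed by -1.14, -0.55, -0.64, -1.23 and -0.44 in mean log2 CPM. In a fit with that series as a covariate, over the ages before P14, the log2 fold change was -0.77 (edgeR adjusted p = 0.00241). At P14 the series and the genotype cannot be told apart.

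Markers of mature olfactory neurons moved with this result. Of 16 such genes, Omp left out because its locus was engineered, 13 were lower in ectopicFzd1 and none higher, with a median log2 fold change of -0.74 against -0.01 for all genes. Their summed level ran from 1157 through a median of 1594 to 3142 CPM in ectopicFzd1 libraries, and from 1246 through 3015 to 5833 CPM in control libraries. The change of Nqo1 lay within their range of -1.48 to -0.14, with 3 of the 16 falling by more. Stoml3, a stomatin of the sensory cilia, fell by 1.48 and Adcy3, the adenylyl cyclase of odor transduction, by 1.05 on the log2 scale. Of 10 markers of immature neurons, 2 were higher and none lower, with a median of 0.21. In bulk tissue, fewer cells of a type and less RNA per cell cannot be told apart, and the part of these markers in the Nqo1 result was not tested.

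Acsm4 did not follow Nqo1. At P0 it had 185, 244 and 168 CPM in ectopicFzd1 libraries, against 247, 214 and 179 CPM in control libraries. At P10 it had 270, 497 and 503 CPM in ectopicFzd1, against 427, 444 and 515 CPM in control. P14 values were 519 and 591 CPM in ectopicFzd1, against 415, 548 and 517 CPM in control. The 2 genotypes overlapped at 4 of the 5 ages, P3 being the exception with 298, 340 and 315 CPM in ectopicFzd1 above 296 and 264 CPM in control. The averaged log2 fold change was -0.00 (SE 0.11, 95% interval -0.22 to 0.22), with means of 362 CPM in ectopicFzd1 and 359 CPM in control, and it changed sign under 3 other settings. All 16 mature neuron markers had lower log2 fold changes than Acsm4.

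Ncam2 was lower in ectopicFzd1 on average over the ages, and a test of whether the effect differed among them did not pass (edgeR F test, adjusted p = 0.785). At P0 it had 34.8, 41.6 and 38.7 CPM in ectopicFzd1, against 47.7, 27.2 and 40.3 CPM in control, 2 groups that overlapped. At P3 it had 67.0, 47.5 and 65.3 CPM in ectopicFzd1, against 92.2 and 80.4 CPM in control. At P7 it had 78.4, 86.5 and 69.4 CPM in ectopicFzd1, against 99.2 and 91.9 CPM in control. The groups stood apart from P3 onwards. At P10 it had 106.5, 82.9 and 99.6 CPM in ectopicFzd1, against 121, 119 and 114 CPM in control. P14 values were 112 and 106.02 CPM in ectopicFzd1, against 132, 119 and 138 CPM in control. Over the 5 ages the log2 fold change was -0.28 (SE 0.083, 95% interval -0.44 to -0.11, edgeR adjusted p = 0.0210). No single age passed for Ncam2, with log2 fold changes of -0.01, -0.54, -0.29, -0.29 and -0.25 from P0 to P14. The averaged call was lost without a filter on low counts (-0.25, edgeR adjusted p = 0.206), with the number series as a covariate (-0.23, edgeR adjusted p = 0.176) and on log2(TPM + 0.1) (limma, adjusted p = 0.0588). It was also lost without ectopicFzd1 P3 replicate 2 (edgeR adjusted p = 0.0587), ectopicFzd1 P14 replicate 2 (0.05002), control P0 replicate 1 (0.0616), control P3 replicate 1 (0.0609) or control P7 replicate 1 (0.0563). Of the mature neuron markers, 12 of 16 had log2 fold changes below that of Ncam2.

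The ranges of the NFI genes over the 5 ages overlapped widely between the genotypes. Nfia ranged from 46.7 through a median of 61.0 to 129 CPM in ectopicFzd1, and from 38.3 through 49.9 to 126 CPM in control. Nfib ranged from 178 through 269 to 454 CPM in ectopicFzd1, and from 179 through 225 to 509 CPM in control. Nfix ranged from 29.1 through 43.5 to 70.9 CPM in ectopicFzd1, and from 25.2 through 35.5 to 65.1 CPM in control. The averaged log2 fold changes were 0.10 for Nfia (95% interval -0.06 to 0.26), 0.04 for Nfib (-0.12 to 0.19) and 0.12 for Nfix (-0.09 to 0.33), none called. Taken on log2(TPM + 1), all 3 were below 0, where the median of all genes stood at -0.12. At the single age P10 Nfix had 60.2, 52.8 and 40.3 CPM in ectopicFzd1 libraries, against 35.2, 35.5 and 25.2 CPM in control libraries, with no overlap. Its log2 fold change there was 0.68 (SE 0.23, edgeR adjusted p = 0.0416), among the 10.3% of genes called at that age. That call was lost in a fit with the share of Gm10800-type genes (0.54, edgeR adjusted p = 0.152), without the libraries above 25% in those genes (0.57, edgeR adjusted p = 0.0789), on log2(TPM + 1) and log2(TPM + 0.1) (limma, adjusted p = 0.497 and 0.476) and without any of 5 of the 6 libraries compared.

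**Figure D2:**
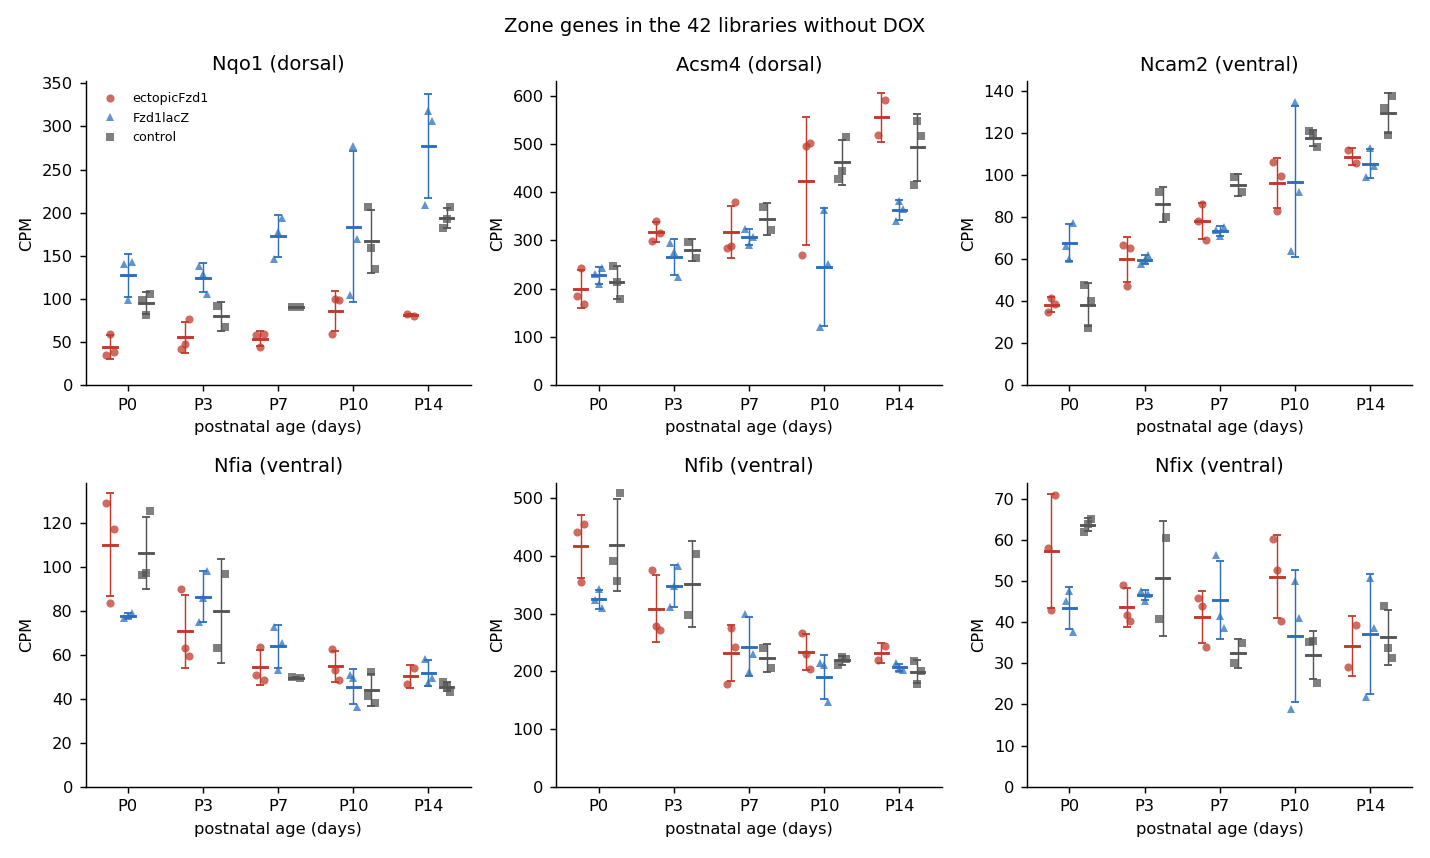
CPM (y axes) of the 6 genes by postnatal age (x axes) in the libraries without DOX; points are libraries, thick lines group means and thin bars 1 SD. Nqo1, Acsm4 and Ncam2 stand higher at P14 than at P0 in each genotype and Nfia, Nfib and Nfix lower, while the ectopicFzd1 means lie lowest for Nqo1 at each age.

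Relatives and pathway partners of the 6 genes were read in the same comparison. Nqo2, the paralog of Nqo1, had a log2 fold change of 0.16, Ncam1, the paralog of Ncam2, one of -0.14, and Nfic, the fourth NFI gene, one of 0.05; none was called, nor was any of the 4 other Acsm genes. Of 14 genes of the Nrf2 pathway, which also drives Nqo1, only Ephx1 was called: this microsomal epoxide hydrolase was higher by 0.42 (SE 0.10, edgeR adjusted p = 0.00338). Of 11 axon guidance genes with graded zonal expression or their partners, 3 were lower and 2 higher. The receptor component Plxna3 fell by 0.60 (edgeR adjusted p = 2.83e-07), the semaphorin co-receptor Nrp1 by 0.39 (7.82e-05) and the Slit receptor Robo2 by 0.21 (0.0307), while the ligand Slit3 rose by 0.35. Of 15 genes of retinoic acid synthesis and response, Rarb, a receptor, and Crabp2, a binding protein, were higher by 0.30 and 0.36 and none was lower. Of 8 factors of receptor choice, Ebf4 alone passed, lower by 0.38 (edgeR adjusted p = 0.00387).

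The dorsal class I odorant receptors gave another reading of the zones. In ectopicFzd1, 95 of 111 class I genes tested were lower, with a median log2 fold change of -1.32, and 638 of the 811 other odorant receptors were lower, with a median of -1.28. The share of class I genes in all odorant receptor counts, from 127 of 1107 receptor genes by position, thus stood at 14.999% in ectopicFzd1 and 14.7% in control over the 5 ages. The difference of 0.28 percentage points was within the spread of the libraries (exact permutation test within ages, two-sided p = 0.715, adjusted p = 0.715 over 4 comparisons of this share). By age the ectopicFzd1 share was higher at 3 and lower at 2.

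The second comparison set the Fzd1lacZ knockout against control. Nqo1 rose, the receptor share of class I fell, and Ncam2 changed in a way that differed among the ages. Of these genotypes only the control carried Omp-IRES-tTA, so the Fzd1 genotype and that allele cannot be told apart, and the control libraries are those of the comparison above. At P0 Nqo1 had 141, 98.7 and 142 CPM in Fzd1lacZ libraries, against 98.5, 81.7 and 105.7 CPM in control libraries. At P3 it had 138, 129 and 105.9 CPM in Fzd1lacZ, against 91.6 and 67.9 CPM in control. At P7 it had 146, 178 and 194 CPM in Fzd1lacZ, against 90.8 and 91.0 CPM in control. The groups overlapped at P0 and stood apart at P3 and P7. At P10 Nqo1 had 104, 277 and 169 CPM in Fzd1lacZ, against 207, 160 and 134 CPM in control. At P14 it had 209, 317 and 306 CPM in Fzd1lacZ, against 183, 193 and 206 CPM in control. The P10 groups overlapped, and those of P14 were separated by a narrow gap.

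The averaged log2 fold change of Nqo1 was 0.54 (SE 0.11, 95% interval 0.32 to 0.77, edgeR adjusted p = 0.00162), from means of 177 CPM in Fzd1lacZ and 125 CPM in control. It was the only one of the 6 members called, where 2.85% of all genes were called, 1.43% higher and 1.42% lower. No single age passed, with log2 fold changes of 0.42, 0.64, 0.92, 0.21 and 0.52 from P0 to P14, where 7.73%, 1.08%, 0.0858%, 0.285% and 0.714% of all genes were called. On log2(TPM + 1) the difference was 0.13 and not called (limma, adjusted p = 0.555), on a scale where the median of all genes stood at -0.19, and relative to that median it was 0.32. Of the 16 mature neuron markers none was called, their median was 0.06 and all 16 lay below the change of Nqo1. Among odorant receptors, also transcripts of neurons, 8 of 111 class I genes were higher and 1 lower, with a median of 0.22. Of 811 others 108 were higher and none lower, with a median of 0.46. The part of neurons in the Nqo1 result was not tested. The number series of the titles separated the genotypes at each age before P14, and within the one series shared at P14 Nqo1 differed by 0.49 in mean log2 CPM over 3 libraries each. Up to 73.7% of the gene counts of Fzd1lacZ P10 libraries lay in Gm10800-type genes, against at most 32.7% in control P10 libraries. With that share as a covariate the log2 fold change of Nqo1 was 0.55 (edgeR adjusted p = 0.000777), and without the libraries above 25% it was 0.61 (edgeR adjusted p = 0.000565).

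Acsm4 pointed the other way from Nqo1 without passing the test. It had 230, 209 and 243 CPM at P0 in Fzd1lacZ, against 247, 214 and 179 CPM in control. At P10 it had 120, 363 and 251 CPM in Fzd1lacZ, against 427, 444 and 515 CPM in control. P14 values were 341, 382 and 366 CPM in Fzd1lacZ, against 415, 548 and 517 CPM in control. All Fzd1lacZ libraries were below all control libraries at P10 and P14, and the groups overlapped at P0, P3 and P7. Its averaged change was -0.29 (SE 0.11, 95% interval -0.51 to -0.08, edgeR adjusted p = 0.145). It was called without Fzd1lacZ P10 replicate 2 (-0.38, edgeR adjusted p = 0.0130) and on log2(TPM + 1) (-0.68, limma, adjusted p = 0.00524), or by -0.49 relative to the median of all genes. Only 2 of 10 other settings and 1 of 28 fits without 1 library called it, and its weakest value under those settings was -0.14. Fzd1lacZ P10 replicate 2 held 38692 odorant receptor counts, against 5182 and 4583 in replicates 1 and 3 of its group, the libraries with 120 and 251 CPM of Acsm4. At P10 alone it was -0.88 (SE 0.24, edgeR adjusted p = 0.0984). Acsm3, another acyl-CoA synthetase of the family, fell by 0.43 (SE 0.12, edgeR adjusted p = 0.0401). In the same comparison 3 of 10 Bowman gland markers were lower and none higher, with a median of -0.57, as were 2 of 9 sustentacular markers (median -0.03) and 2 of 10 horizontal basal cell markers (median -0.16). Their part in the values of Acsm4 and Acsm3 was not tested.

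Ncam2 was higher in the knockout at birth and lower, by amounts that did not pass, afterwards. At P0 it had 66.5, 60.1 and 77.3 CPM in Fzd1lacZ libraries, against 47.7, 27.2 and 40.3 CPM in control libraries. At P3 it had 57.7, 59.6 and 62.3 CPM in Fzd1lacZ, against 92.2 and 80.4 CPM in control. At P7 it had 73.9, 70.9 and 75.5 CPM in Fzd1lacZ, against 99.2 and 91.9 CPM in control. The groups stood apart at all 3 of these ages, with Fzd1lacZ above control at P0 and below it at P3 and P7. At P10 Ncam2 had 63.8, 135 and 92.0 CPM in Fzd1lacZ, against 121, 119 and 114 CPM in control, groups that overlapped. P14 values were 99.3, 113 and 104 CPM in Fzd1lacZ, against 132, 119 and 138 CPM in control, with no overlap. Over all ages the log2 fold change was -0.11 and not called (95% interval -0.28 to 0.05), but the effect differed among ages (edgeR F test over the 5 ages, adjusted p = 0.00594, with 2.77% of all genes called).

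At P0 the log2 fold change of Ncam2 was 0.82 (SE 0.18, edgeR adjusted p = 0.00434), among the 7.73% of genes called at that age. From P3 to P14 it was -0.53, -0.38, -0.18 and -0.29, none of which passed. Control P0 replicate 2, the lowest of the Ncam2 values, weighed on both calls. Without it the change at P0 was 0.62 (edgeR adjusted p = 0.0746) and the test among ages gave an edgeR adjusted p of 0.0556. The P0 change on log2(TPM + 1) was 0.84 and not called (limma, adjusted p = 0.196). At P0 the libraries of the 2 genotypes also differed in other ways. Gm10800-type genes took 9.27% to 13.4% of gene counts in Fzd1lacZ, against 0.054% to 0.68% in control, and with that share as a covariate the Ncam2 change was 0.91 (edgeR adjusted p = 0.0105). The summed mature neuron markers ran from 1912 to 2207 CPM in Fzd1lacZ, against 1246 to 1823 CPM in control, and those of immature neurons from 1533 to 1673 CPM, against 934 to 1432 CPM. Their part in the P0 result was not tested.

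The 3 NFI genes had log2 fold changes below 0 at P0, of -0.45 for Nfia, -0.37 for Nfib and -0.55 for Nfix, and none passed (edgeR adjusted p = 0.0618, 0.120 and 0.0822). Nfia had 76.7, 78.0 and 79.0 CPM in Fzd1lacZ libraries at P0, against 96.5, 97.4 and 126 CPM in control libraries. Nfix had 45.1, 47.6 and 37.7 CPM in Fzd1lacZ, against 62.0, 63.9 and 65.1 CPM in control. All 3 genes were lower in every Fzd1lacZ library at P0 than in every control library of that age. At P0 7.73% of all genes were called in this comparison, and how many stood apart in this way was not counted. Averaged over the ages, their log2 fold changes were 0.06, -0.08 and 0.06 and none was called. On log2(TPM + 1), however, Nfib and the ventral gene Ncam2 were called lower (-0.42 and -0.43, limma, adjusted p = 0.0314 and 0.0320), or by -0.23 and -0.24 relative to the median of all genes. Nfic (0.06), Ncam1 (-0.07) and Nqo2 (0.00) were not called either. Among pathway genes, Aldh1a1, an enzyme of retinoic acid synthesis, fell by 0.47 (edgeR adjusted p = 0.0185) and the receptor Rarg rose by 0.36 (0.0312). Of the 14 Nrf2 pathway genes 2 were called, both lower while Nqo1 was higher: Gclm, a subunit of the enzyme that makes glutathione precursors, fell by 0.29 (edgeR adjusted p = 0.0147) and the cystine carrier Slc7a11 by 0.61 (0.0497). None of the guidance genes or receptor choice factors was called.

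The class I share was lower in the knockout. It stood at 14.3% ± 0.36 in Fzd1lacZ and 19.5% ± 3.39 in control at P0 (SD, n = 3 each). At P3 it was 13.6% ± 0.55 in Fzd1lacZ (n = 3) and 14.8% ± 0.64 in control (n = 2). At P10 it was 11.4% ± 0.43 in Fzd1lacZ and 13.95% ± 0.71 in control, and at P14 11.5% ± 0.38 in Fzd1lacZ and 11.4% ± 0.53 in control (SD, n = 3 each). The P14 means, from libraries of the same number series in the titles, lay within the spread of the libraries. Fzd1lacZ was lower at the other 4 ages, where series and genotype cannot be told apart. Averaged over the 5 ages the share was 12.7% in Fzd1lacZ and 14.7% in control, a difference of -1.99 percentage points (exact permutation test within ages, two-sided p = 0.000139, adjusted p = 0.0005). Leaving out P0 reduced it to -1.20 points (exact permutation p = 0.00255, a setting chosen after seeing the data). Of single class I genes 8 of 111 were higher and 1 lower, with a median log2 fold change of 0.22, beside 108 of 811 other receptors higher and none lower, with a median of 0.46.

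**Figure D3:**
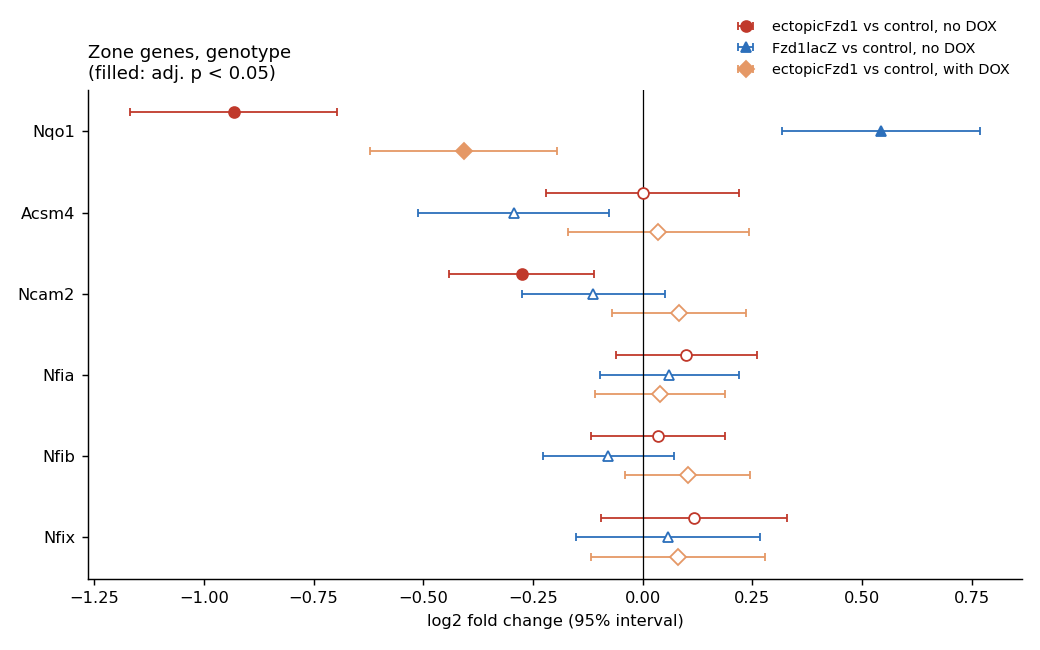
Log2 fold change (x axis) of each of the 6 genes (y axis) in 3 comparisons, each averaged over 5 ages; points are edgeR estimates, bars 95% intervals and filled points adjusted p under 0.05. Nqo1 is filled in all 3, at -0.93, 0.54 and -0.41, and Ncam2 in ectopicFzd1 without DOX, at -0.28.

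**Figure D4:**
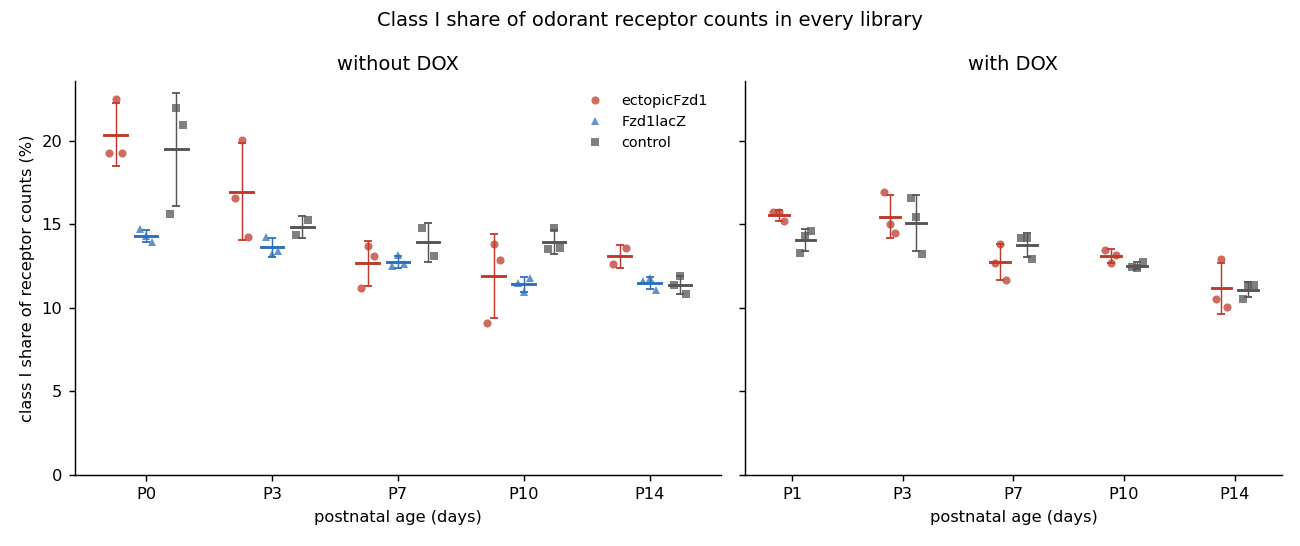
Class I genes as a percentage of all odorant receptor counts (y axis) by postnatal age (x axis) without DOX (left) and with DOX (right); points are libraries, thick lines group means and thin bars 1 SD. The Fzd1lacZ means run from 14.3% at P0 to 11.5% at P14 and the control means without DOX from 19.5% to 11.4%.

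With DOX, which holds the transgene off, the Fzd1 ranges of ectopicFzd1 and control libraries overlapped, and Nqo1 fell, by a call that did not hold under several settings. At P1 it had 42.9, 88.7 and 92.8 CPM in ectopicFzd1 libraries, against 92.0, 80.8 and 81.0 CPM in control libraries. At P3 it had 130, 124 and 112 CPM in ectopicFzd1, against 174, 143 and 90.0 CPM in control. At P7 it had 108, 83.5 and 89.3 CPM in ectopicFzd1, against 140, 110 and 100.4 CPM in control. The groups overlapped at these 3 ages. At P10 Nqo1 had 145, 114 and 126 CPM in ectopicFzd1, against 207, 189 and 204 CPM in control. At P14 it had 130, 131 and 105.9 CPM in ectopicFzd1, against 233, 226 and 163 CPM in control. All ectopicFzd1 libraries were lower at P10 and P14. The averaged log2 fold change was -0.41 (SE 0.11, 95% interval -0.62 to -0.19, edgeR adjusted p = 0.0428), the only one called of the 6 members, where 0.826% of all genes were called, 0.515% higher and 0.312% lower. Singly, the ages gave -0.17, -0.15, -0.33, -0.64 and -0.76, none called, where 14.8%, 0.181%, 0.569%, 0.0858% and 0.199% of genes were. A test of whether the effect differed among ages did not pass for Ncam2 (edgeR F test, adjusted p = 0.0858, with 9.6% of genes called). The number series of the titles separated the genotypes at P3, P7, P10 and P14, where series and genotype cannot be told apart. Within the series shared at P1, Nqo1 differed by -0.25 in mean log2 CPM over 3 libraries each.

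That call was lost when any of 22 of the 30 libraries was left out, with adjusted p-values from 0.0158 to 0.104. Without both libraries that went against their labels the log2 fold change was -0.38 (edgeR adjusted p = 0.0733), and on log2(TPM + 1) it was -0.41 (limma, adjusted p = 0.540). Over P1, P7, P10 and P14, a setting chosen after seeing the data because the 3 ectopicFzd1 libraries of P3 carry 1 title number, it was -0.47 (edgeR adjusted p = 0.0177). None of the 16 mature neuron markers was called, their median was -0.20 and 1 of them lay below Nqo1. Their sums nonetheless stood apart at P14, with 3356 to 4353 CPM in ectopicFzd1 and 4631 to 6002 CPM in control. Neither Acsm4 (0.04, 95% interval -0.17 to 0.24) nor Ncam2 (0.08, -0.07 to 0.24) passed, and Nfia, Nfib and Nfix had 0.04, 0.10 and 0.08. Of the pathway genes only the ligand Sema3f (0.33, edgeR adjusted p = 0.0154) and the receptor Rarb (0.22, edgeR adjusted p = 0.0308) were called. The class I share was 13.6% in ectopicFzd1 and 13.3% in control (exact permutation p = 0.412, adjusted p = 0.549).

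The difference between the ectopicFzd1 effects without and with DOX, over P3, P7, P10 and P14, passed for none of the 6 genes. It was -0.42 for Nqo1 (SE 0.18, edgeR adjusted p = 0.318) and -0.34 for Ncam2 (SE 0.13, edgeR adjusted p = 0.208), where 2.39% of all genes were called, 0.271% higher and 2.12% lower, and 2455 had an unadjusted p under 0.05. The effects without and with DOX are thus not shown to differ for any of the 6. In the same difference 7 of the 16 mature neuron markers and Plxna3 (-0.51, edgeR adjusted p = 0.0189) were lower. Control with DOX against control without DOX, over the same 4 ages, called none of the 6. There 0.867% of all genes were called, 0.578% higher and 0.289% lower, and 2950 had an unadjusted p under 0.05 in edgeR. The number series of the titles separated these libraries at P3, P7 and P10, where series and DOX cannot be told apart. Nqo1 had means of 165 CPM with DOX and 133 CPM without, a log2 fold change of 0.37 (SE 0.13, edgeR adjusted p = 0.154) that passed only when the fit was limited to the groups compared (0.36, edgeR adjusted p = 0.0287). Among pathway genes Plxna3 (0.41, edgeR adjusted p = 0.0183), Slit1 (0.38, 0.0415) and the Nrf2 target Osgin1 (0.48, 0.0400) were higher with DOX.

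All 6 genes changed with age, the dorsal pair and Ncam2 upwards and the NFI genes downwards, so that the ventral genes did not move together. Without DOX, P0 and P14 shared no number series of the titles within a genotype. Age and series therefore cannot be told apart in that comparison. In control libraries Nqo1 had 194 ± 11.9 CPM at P14 and 95.3 ± 12.3 CPM at P0 (SD, n = 3 each). It stood at 79.7 ± 16.8 CPM at P3 and 90.9 ± 0.15 CPM at P7 (n = 2 each) and 167 ± 36.6 CPM at P10 (n = 3). The first 3 ages did not differ beyond their spread, nor did P10 and P14, and the step lay between P7 and P10. Acsm4 rose more evenly in control, with 213 ± 34.3, 280 ± 22.4, 345 ± 33.2, 462 ± 46.9 and 493 ± 69.8 CPM from P0 to P14. Ncam2 had its largest step at the start, with 38.4 ± 10.4, 86.3 ± 8.36, 95.6 ± 5.19, 118 ± 3.88 and 130 ± 9.61 CPM in the same order. Nfia had 107 ± 16.6, 80.1 ± 23.7, 49.7 ± 0.26, 44.0 ± 7.40 and 45.7 ± 2.17 CPM. Its P10 libraries overlapped with those of P7 and P14, while both P7 libraries lay above all 3 of P14. Nfib followed the same course, with 419 ± 79.7, 351 ± 74.7, 223 ± 24.2, 219 ± 7.78 and 199 ± 20.03 CPM from P0 to P14. Nfix had 63.7 ± 1.55, 50.7 ± 13.9, 32.4 ± 3.48, 32.0 ± 5.83 and 36.3 ± 6.64 CPM, with the last 3 ages within their spread. These are SDs over 3 libraries at P0, P10 and P14 and 2 at P3 and P7.

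Averaged over the 3 genotypes without DOX, P14 against P0 gave log2 fold changes of 1.02 for Nqo1 (SE 0.14), 1.12 for Acsm4 (SE 0.14) and 1.30 for Ncam2 (SE 0.10). It gave -0.98 for Nfia (SE 0.10), -0.86 for Nfib (SE 0.097) and -0.57 for Nfix (SE 0.13). All 6 were called (edgeR, largest adjusted p = 0.000191), in a comparison that called 58.8% of all genes, 31.6% higher and 27.2% lower. A test over all 5 ages also called all 6, as it did 68.3% of genes. With DOX, P14 against P1 gave 0.99, 1.57 and 1.59 for Nqo1, Acsm4 and Ncam2 and -1.39, -1.01 and -1.23 for Nfia, Nfib and Nfix, all 6 called (edgeR, largest adjusted p = 1.60e-06) where 48.4% of genes were, 21.8% higher and 26.6% lower. With DOX the control libraries of P1 and P14 came from the same number series, and those of ectopicFzd1 did not. Time on DOX also grew with age there. On log2(TPM + 1) the median of all genes fell by 0.40 without DOX and by 0.59 with DOX. On that scale Nqo1 changed by 0.31 and 0.07 and was not called (limma, adjusted p = 0.189 and 0.830), or by 0.72 and 0.66 relative to those medians. Acsm4 changed by 0.43 without DOX there (limma, adjusted p = 0.0628) and was called with DOX (0.63), as Ncam2 and the NFI genes were in both. Nfix without DOX was no longer called in a fit with the share of Gm10800-type genes (-0.32, edgeR adjusted p = 0.0805).

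**Figure D5:**
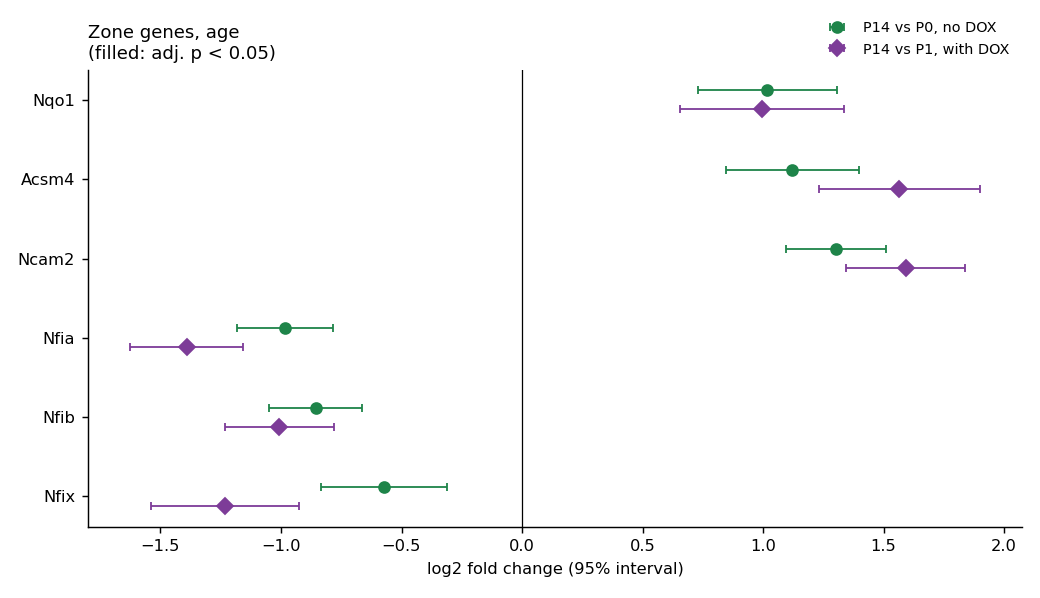
Log2 fold change (x axis) of each of the 6 genes (y axis) between ages, P14 against P0 without DOX over 3 genotypes and P14 against P1 with DOX over 2; points are edgeR estimates, bars 95% intervals, and all points are filled since every adjusted p was under 0.05. Nqo1, Acsm4 and Ncam2 lie between 0.99 and 1.59 and the NFI genes between -1.39 and -0.57.

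Cell type markers changed with age beside these genes. All 16 mature neuron markers rose without DOX, with a median of 1.35, and so did all 10 of immature neurons, with a median of 0.70. Other cell types moved upwards too: 7 of 10 Bowman gland markers rose and 2 fell, with a median of 2.46, and all 9 sustentacular markers tested rose, with a median of 1.4997. All 10 markers of horizontal basal cells, the resting stem cells of the epithelium, fell, with a median of -0.90, as did 9 of 10 endothelial and 7 of 10 cartilage markers. In the DOX libraries of P1 the summed cartilage markers ran from 1524 to 3800 CPM, against 141 to 531 CPM in the P0 libraries without DOX. The part of any of these markers in the changes of the 6 genes was not tested. Among relatives, Nfic fell by 0.31 (edgeR adjusted p = 0.0409) with its 3 paralogs, Ncam1 had 0.02 and was not called, and Nqo2 fell by 0.59 while Nqo1 rose. Of the 4 other Acsm genes 3 rose, Acsm3 by 2.16 (SE 0.15), and Acsm1 fell by 1.42 (SE 0.16). Acsm2 and Acsm5 averaged at most 2.38 CPM and rested on few reads.

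Pathway genes of the 6 were also called between P14 and P0 without DOX. Of the 14 Nrf2 pathway genes 11 rose and none fell, with a median of 0.48. The epoxide hydrolase Ephx1 rose by 1.27, sulfiredoxin Srxn1 by 0.87 and the glutathione transferase Gstm1 by 0.85. Of the 8 factors of receptor choice 7 rose and none fell, among them Ebf4 (0.79), Emx2 (0.78) and Lhx2 (0.66). Of the 15 retinoic acid genes 4 rose and 4 fell. Rdh10, which makes retinaldehyde, fell by 1.38, while the binding protein Crabp1 rose by 0.80. Of the 11 guidance genes 4 fell and 1 rose, the ligand Slit2 by the most, 0.89. The class I share fell to 12.0% at P14, against 18.1% at P0, over the 3 genotypes (exact permutation test within genotypes, p = 0.00025, the smallest it can give, adjusted p = 0.0005). It fell in each genotype, while 77 of 111 class I genes rose (median 0.97) and 720 of 811 other receptors did (median 1.63).

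Among themselves the 6 genes correlated differently over group means, which share age, and within groups. Over the means of the 25 groups, which share age and library scaling, Nfia and Nfib had a Pearson correlation of 0.97 in log2 CPM, and within groups, over 72 libraries, one of 0.83. Within groups both dorsal genes ran against these 2 ventral genes, with -0.49 and -0.48 for Nqo1 and -0.50 and -0.46 for Acsm4 (Nfia first). This did not extend to the other ventral genes: Nfix had -0.04 with Nqo1 and -0.08 with Acsm4, and Ncam2 had 0.17 with Nqo1. Acsm4 and Ncam2, of opposite zones, had 0.84 over group means and 0.16 within groups. Nqo1 and Acsm4, both dorsal, had 0.42 over group means and 0.71 within groups. Ncam2 and Nfia, both ventral, had -0.90 over group means and 0.01 within groups. The 3 genes most like Nqo1 over the 25 group means, among 13124 candidates, were the odorant receptors Olfr1321 (0.92), Olfr213 (0.91) and Olfr1110 (0.91). Those most like Acsm4 were Tmem237 (0.96), Prnp (0.94) and Rfk (0.94), and those most like Ncam2 were Syt14 (0.97), Sgtb (0.97) and Ttll7 (0.95). Nfia was most like Qser1 (0.98), Nfib (0.97) and Lpp (0.96), Nfib like Qser1 (0.98) and Nfia (0.97), and Nfix like Pcbp2 (0.92), Pkdcc (0.91) and Nfic (0.90). On log2(TPM + 1) none of the 3 genes named for Nqo1 was among its 3 most alike; 1 of the 3 was kept for Acsm4, 1 for Ncam2 and none for Nfia, Nfib or Nfix. These correlations are a description and carry no test.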

How the data were processed

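Olfactory epithelium RNA was sequenced from TruSeq Stranded Total RNA libraries, per the labels' protocols. Per the submitters' processing notes the tools were bcl2fastq 2.18, STAR 2.6.1c and RSEM, on mm10; RSEM's version, the annotation and the counting strand are not given in the sources used here. The authors deposited raw read counts per gene and TPM values per gene. Libraries were grouped by their titles. Genes kept by edgeR's filterByExpr were tested with edgeR 4.0.16 (quasi-likelihood, TMM, R 4.3.3), with all 25 groups in 1 fit and Benjamini-Hochberg adjustment over 22144 genes at 0.05. CPM used TMM-scaled library sizes. Fits without 1 library kept the trended negative binomial dispersion of all 72, while normalization factors and quasi-likelihood dispersions were estimated again. Alternatives were DESeq2 1.42.0, its size factors, no filter, a mean CPM of at least 1, only the groups compared, covariates (share of Gm10800-type genes, title number series), leaving out libraries, and limma 3.58.1 on log2(TPM + 1) and log2(TPM + 0.1). The tests were tried on simulated data with known changes. Class I receptors were those at 102 to 106 Mb of chromosome 7. Genes named were the members, their paralogs, up to 4 called genes of each pathway list per comparison by smallest p, and for each member the 3 genes most correlated with it; Stoml3 and Adcy3 were named after their values were seen. The members and lists were chosen with earlier results of these data known. Results for 2 genes that these rules name are not reported here.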

Additional observations from a re-analysis of the deposited data

Results flagged for a closer look

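The effect of the Fzd1lacZ genotype on Ncam2 differed among the 5 ages, by a test of the difference itself (edgeR F test, adjusted p = 0.00594). The log2 fold change against control was 0.82 at P0, where all 3 Fzd1lacZ libraries were higher than all 3 control libraries, and -0.53, -0.38, -0.18 and -0.29 from P3 to P14. Without control P0 replicate 2 the adjusted p of that test was 0.0556.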

How the results depend on the processing

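Of the results recomputed with 1 library left out, 1414 kept their direction and their side of the threshold, 27 lost and 1 gained a call, 41 changed sign and 30 counts or values moved. Under the other alternatives these numbers were 475, 15, 7, 27 and 17. None of the sign changes had an adjusted p under 0.05, and their cause was not tested. The fall of Nqo1 in ectopicFzd1 without DOX was called under all 11 other settings and in all 27 fits without 1 library.

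The number of the 6 genes called in ectopicFzd1 without DOX was 1 in place of 2 with no filter, with the title number series as a covariate and on log2(TPM + 0.1), and 1 to 2 with a library left out. For Fzd1lacZ it was 1 to 2 with a library left out, and 3 in place of 1 on both TPM scales. Those 3 were Acsm4, Ncam2 and Nfib, all lower, and Nqo1 was not called there. The median of all genes stood at -0.19 on log2(TPM + 1) and at -0.34 on log2(TPM + 0.1). For ectopicFzd1 with DOX it was 0 in place of 1 without the 2 libraries that went against their labels and on both TPM scales, and 0 to 1 with a library left out. For DOX in control it was 1 in place of 0 with only the groups compared. Over all single ages it was 12 in place of 5 with only the groups compared, 8 without the libraries above 25% in Gm10800-type genes, and 3 to 7 with a library left out. The share of all genes called under these other settings is not given here, so the numbers are not read as a result about the 6 genes.

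Uncalled log2 fold changes near 0 changed sign. In ectopicFzd1 without DOX, Acsm4 was 0.022 with no filter, 0.00078 without the 2 libraries that went against their labels, 0.036 without those above 25%, and -0.035 to 0.048 with a library left out. Nfib was -0.056 with the title number series, -0.25 on log2(TPM + 1), -0.26 on log2(TPM + 0.1), and -0.0048 to 0.083 with a library left out. On the 2 TPM scales Nfia was -0.13 and -0.15, and Nfix -0.11 and -0.12. In Fzd1lacZ, Nfib was 0.013 without the libraries above 25%. On the 2 TPM scales Nfia was -0.26 and -0.33, and Nfix -0.32 and -0.42, with -0.035 to 0.12 for Nfix with a library left out. In ectopicFzd1 with DOX, Acsm4 was -0.0021 over P1, P7, P10 and P14, a setting chosen after seeing the data, and -0.014 to 0.096 with a library left out.

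In the DOX difference Nfia was -0.15 and -0.18 on the 2 TPM scales, and Nfib -0.099 to 0.011 with a library left out. For DOX in control, Ncam2 was 0.013 with no filter, 0.075 and 0.083 on the TPM scales, and -0.044 to 0.025 with a library left out. Acsm4 was -0.031 without the 2 libraries that went against their labels, -0.042 with the Gm10800-type share, and -0.050 to 0.087 with a library left out. Nfia was 0.080 and 0.089 on the TPM scales and -0.14 to 0.011 with a library left out, and Nfix was 0.0084 and 0.019 on those scales. The class I share of ectopicFzd1 without DOX less that of control was -0.10 to 0.57 percentage points with a library left out. No paired analysis was possible because replicate numbers were given in accession order and pair no libraries.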
